A study of Mus musculus with 6 samples.

Results

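The genes described here are 10 textbook targets of the transcription factor p53, namely Cdkn1a, Mdm2, Ccng1, Bax, Bbc3, Trp53inp1, Zmat3, Phlda3, Eda2r and Aen, measured in liver endothelial cells of mice on a high-iron or a control-iron diet. They were taken by symbol from a deposited table of 39179 genes, in which all 10 were found with 1 row each. p53 is held at low levels in unstressed cells and accumulates after DNA damage and other stress. It binds response elements built from a pair of decamers and raises genes that stop the cell cycle, repair DNA, trigger apoptosis or, through Mdm2, shut p53 off again. The mRNAs of such targets are a common readout of p53 activity.

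Endothelial cells were sorted from livers of 7-week-old wild-type male mice of the 129S6/SvEvTac strain. In the high-iron group (n = 3) mice ate a purified diet with 10000 ppm carbonyl iron for 4 weeks, from the age of 3 weeks. In the control-iron group (n = 3) the same kind of diet held 37 ppm iron as ferric citrate for the same time, so the groups differed in both the amount and the form of iron. The gate kept CD31+ CD146+ cells without CD45, lineage markers, MHC class II or CD64, and RNA was sequenced from 1 library per replicate. The labels call the replicates biological but do not say whether animals were pooled, so a p-value measures the spread between these libraries.

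Levels are CPM, the reads of a gene scaled to the size of its library, behind which lay 12963510 to 21663543 reads in genes per library. The 12 endothelial markers were detected in every library and summed to 21485 to 22214 CPM in high-iron and 23096 to 24415 CPM in control-iron libraries. Markers of cells that the gate leaves out were present as well. Those said to have risen passed an adjusted p under 0.05 in limma, as 0.832% of all tested genes did in that direction. The 15 macrophage markers, of which 3 of 14 tested rose, summed to 536 to 877 CPM in high-iron and 329 to 703 CPM in control-iron libraries. The 4 MHC class II genes, of which 3 rose, summed to 176 to 559 CPM in high-iron and 42.4 to 80.5 CPM in control-iron libraries. The 12 hepatocyte markers summed to 668 to 1299 CPM in high-iron and 291 to 1286 CPM in control-iron libraries. The 8 lymphocyte markers, of which 1 rose, summed to 14.9 to 23.2 CPM in high-iron and 3.71 to 8.66 CPM in control-iron libraries. Stellate markers summed to 218, 961 and 585 CPM in high-iron replicates 1 to 3 and 136, 1038 and 532 CPM in control-iron replicates 1 to 3. Erythroid markers summed to 919, 3478 and 620 CPM and to 867, 2873 and 1086 CPM in the same order. Both overlapped between the groups with no call, and replicate 2 was highest in each group. No marker of these lists was at 0 in all libraries. The first principal component held 41.3% of the variance. On it the high-iron libraries lay at -7.44, -31.2 and -21.1 (replicates 1 to 3) and the control-iron libraries at 13.2, 5.06 and 41.4. The groups did not overlap there, and control-iron replicate 3 lay highest.

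The promoters of several members match the consensus sequence of p53. RefSeq promoter windows on GRCm38.p6, from 250 bases before to 50 bases after a transcription start, were found for 8 of the 10 members. A decamer that matches the p53 consensus at all 10 positions was present in a window of 5 of these 8 genes, namely Cdkn1a, Mdm2, Ccng1, Bax and Aen, and in 9.55% of 27025 genes with a window. A pair of adjacent decamers, a looser form of the full response element with the core C and G of each decamer kept and at most 3 mismatches over 20 bases (at most 2 in a decamer), was present for Cdkn1a, Ccng1 and Bbc3, and for 1.39% of all genes. The consensus reads the same on both strands, so both were covered, and the pairs of Cdkn1a and Ccng1 contain a decamer already counted. The windows of Phlda3 and Eda2r held neither pattern. No match means that these letters are not in these windows, and a match is a string of letters, not a measured binding site.

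The 3 adjacent pairs are shown with 20 bases on either side, 5′ to 3′ on the strand of the gene, with the 20 matching bases in capitals. They lie at chr17:29090908-29090967 on the plus strand for Cdkn1a, at chr11:40755442-40755501 on the minus strand for Ccng1 and at chr7:16309466-16309525 on the plus strand for Bbc3. The pairs end 32, 176 and 78 bases before an annotated start in that order and had 1, 1 and 3 mismatches to the consensus. Each distance is to the start of the window that holds the pair, 1 of 2 windows for Cdkn1a, the only window for Ccng1 and 1 of 3 for Bbc3.
Cdkn1a: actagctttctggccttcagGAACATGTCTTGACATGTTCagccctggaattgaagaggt
Ccng1: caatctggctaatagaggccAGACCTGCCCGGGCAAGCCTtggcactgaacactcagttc
Bbc3: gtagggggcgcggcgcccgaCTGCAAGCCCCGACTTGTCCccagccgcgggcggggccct

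Single full matches of the decamer are shown with 10 bases on either side, again with the match in capitals, because these members differ from the first 3 in having no adjacent second decamer within the limit. They lie at chr10:117710925-117710954 on the minus strand for Mdm2, at chr7:45467080-45467109 on the minus strand for Bax and at chr7:78895927-78895956 on the plus strand for Aen. The Aen match overlaps an exon of Aen, that of Bbc3 lies within its gene outside annotated exons, and the other 4 lie before the gene.
Mdm2: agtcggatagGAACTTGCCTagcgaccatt
Bax: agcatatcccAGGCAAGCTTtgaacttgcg
Aen: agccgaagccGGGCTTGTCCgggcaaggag

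No member passed the threshold in the comparison of high-iron with control-iron cells. All 10 members passed the filter on low values (at least 1 CPM in at least 3 libraries) and 0 were called by limma at an adjusted p under 0.05, while 1.02% of the 12980 genes tested were called (0.832% higher and 0.193% lower in high-iron cells). At an unadjusted p under 0.05 there were 3 members (Eda2r, Cdkn1a and Phlda3), all with higher means in high-iron cells, where 12.1% of all tested genes met that level (7.30% higher and 4.82% lower). Of the members, edgeR and DESeq2 called 0 each, against 0.863% and 3.27% of the genes they tested. The log2 fold change of high-iron over control-iron cells was above 0 for 8 of 10 members, as it was for 49.5% of all tested genes, and for 7 to 10 members when 1 library was left out. Its median was 0.29 over the members and -0.0034 over all tested genes, whose central 50% lay between -0.19 and 0.20. Except where a fold change is given as that of edgeR or DESeq2, it was computed after adding 1 CPM before taking logs, so those of genes with low levels are understated. The limma p-values were adjusted over all 12980 genes by the Benjamini-Hochberg method.

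**Figure D1:**
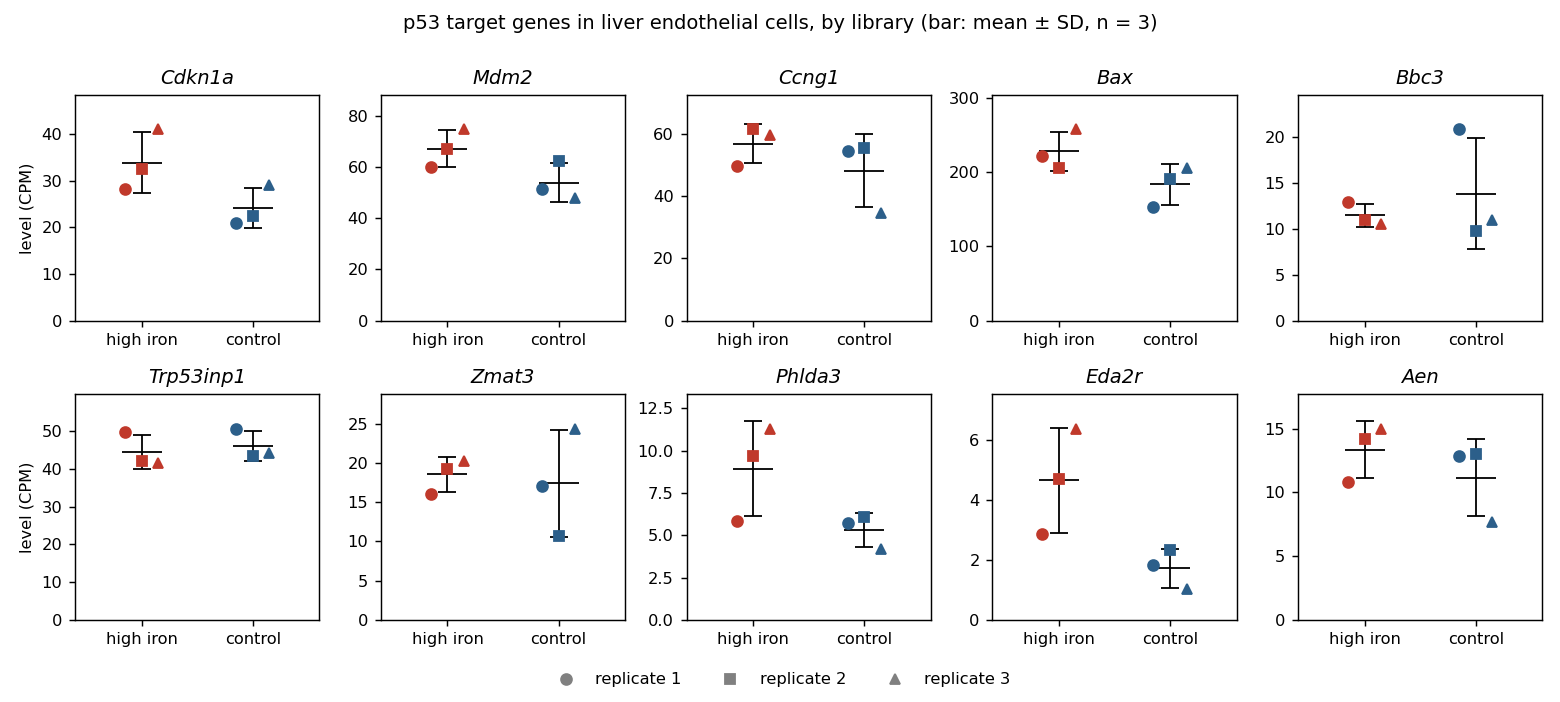
Level of each member in CPM (vertical axes, linear and from 0) in the 3 high-iron and 3 control-iron libraries; points are libraries, shaped by replicate, and bars are the mean ± SD. The groups do not overlap for Eda2r and Bax, each with a gap of less than 1 CPM, and overlap for the other 8 members.

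Cdkn1a encodes p21, the inhibitor of cyclin-dependent kinases through which p53 halts the cell cycle. Its level was 28.2, 32.5 and 41.0 CPM in high-iron replicates 1 to 3, against 20.9, 22.5 and 29.0 CPM in control-iron replicates 1 to 3. High-iron replicates 2 and 3 were above every control library and high-iron replicate 1 was just below control-iron replicate 3, so the groups overlapped. The means were 33.9 ± 6.49 CPM in high-iron and 24.1 ± 4.29 CPM in control-iron cells (SD, n = 3 each). High-iron over control-iron cells had a log2 fold change of 0.47 ± 0.19 (SE), with a 95% interval of 0.039 to 0.90 and an adjusted p of 0.38 in limma. On a linear scale that interval runs from 1.03-fold to 1.87-fold. Cdkn1a (ENSMUSG00000023067) spans chr17:29090976-29100727 in GRCm38, plus strand, and an unnamed gene model on the opposite strand covers 7.68% of its exon length.

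Ccng1 encodes cyclin G1, a p53 target that recruits a phosphatase to Mdm2. It had 49.7, 61.5 and 59.7 CPM in high-iron libraries, against 54.5, 55.6 and 34.7 CPM in control-iron libraries. Control-iron replicate 3 was the one low library, and the other 5 lay between 49.7 and 61.5 CPM. Over all libraries the log2 fold change was 0.26 ± 0.20 (SE, adjusted p = 0.61 in limma), and it was 0.042 without control-iron replicate 3. Btg2 and Plk2, other arrest genes under p53, are given with the wider target lists. The gene spans chr11:40748552-40755311 on the minus strand of GRCm38.

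Mdm2 encodes the ubiquitin ligase that marks p53 for degradation, and its induction closes the feedback loop of the pathway. Its level was 59.9, 66.9 and 74.6 CPM in high-iron libraries, against 51.2, 62.4 and 47.9 CPM in control-iron libraries. High-iron replicate 1 lay below control-iron replicate 2, so the groups overlapped. Mdm2 had a log2 fold change of 0.32 ± 0.15 (SE), with a 95% interval of -0.026 to 0.66 and an adjusted p of 0.44 in limma. Gene totals do not separate the transcripts of the constitutive promoter of Mdm2 from those of its p53-dependent internal promoter. The gene model spans chr10:117688875-117710758, minus strand.

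Bax encodes a BCL2 family protein that opens the outer mitochondrial membrane in apoptosis. It had 221, 206 and 257 CPM in high-iron libraries, against 153, 191 and 206 CPM in control-iron libraries. All high-iron libraries were above all control libraries, by a gap of under 1 CPM between high-iron replicate 2 and control-iron replicate 3. Groups did not overlap for 2 of the 10 members, both higher on high iron, against 17.9% of all tested genes in either direction (9.46% higher and 8.44% lower on high iron). For Bax the log2 fold change was 0.32 ± 0.15 (SE), with a 95% interval of -0.020 to 0.66 and an adjusted p of 0.44 in limma, and it was 0.20 without control-iron replicate 1. Bax spans chr7:45461697-45466898 on the minus strand, and another gene model, Gm45808, covers 12.2% of its exon length on the same strand in GENCODE M21.

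Bbc3 encodes PUMA, a BH3-only protein that binds the protective members of the BCL2 family. It had 12.9, 11.0 and 10.5 CPM in high-iron libraries, against 20.8, 9.80 and 10.9 CPM in control-iron libraries. Control-iron replicate 1 stood well above the other 5 libraries, which lay between 9.80 and 12.9 CPM. Its log2 fold change was -0.18 ± 0.27 (SE, adjusted p = 0.80 in limma), and it was 0.13 without control-iron replicate 1. Bbc3 spans chr7:16308393-16318205 on the plus strand.

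Aen encodes an exonuclease that takes part in DNA breakdown during apoptosis. Its level was 10.8, 14.2 and 15.0 CPM in high-iron libraries, against 12.8, 13.0 and 7.63 CPM in control-iron libraries. As for Ccng1, control-iron replicate 3 was the lowest library, and the groups overlapped. For Aen the log2 fold change was 0.26 ± 0.24 (SE, adjusted p = 0.68 in limma), and 0.031 without that library. Aen spans chr7:78895854-78911209 on the plus strand.

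Eda2r encodes a receptor of the tumour necrosis factor receptor superfamily that binds the A2 form of ectodysplasin. It had 2.87, 4.72 and 6.38 CPM in high-iron libraries, against 1.82, 2.32 and 1.03 CPM in control-iron libraries. Every high-iron library was above every control library, and the spread within each group was wide for its mean. Eda2r had a log2 fold change of 1.04 ± 0.30 (SE), with a 95% interval of 0.36 to 1.72, the largest of the 10 members. From reads, the estimate was 1.41 in edgeR and 1.43 in DESeq2. Eda2r did not pass the adjustment over all genes in limma (adjusted p = 0.19), edgeR (0.23) or DESeq2 (0.073), and over all alternatives the adjusted p lay between 0.062 and 0.66. These values rest on 56, 80 and 83 reads in high-iron and 35, 50 and 18 reads in control-iron libraries. Eda2r spans chrX:97333840-97377216 on the minus strand. Its ligand gene Eda was under 1 CPM in all 6 libraries.

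Phlda3 encodes a small protein with a pleckstrin homology domain that competes with the kinase AKT for membrane lipids. Its level was 5.85, 9.67 and 11.3 CPM in high-iron libraries, against 5.71, 6.08 and 4.16 CPM in control-iron libraries. High-iron replicate 1 lay within the control range and the other high-iron libraries above it. Its log2 fold change was 0.62 ± 0.27 (SE), with a 95% interval of 0.030 to 1.22 and an adjusted p of 0.39 in limma. Phlda3 spans chr1:135766119-135769136 on the plus strand.

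Trp53inp1, a nuclear cofactor of p53 that also acts in autophagy, had 49.7, 42.2 and 41.7 CPM in high-iron libraries, against 50.7, 43.5 and 44.2 CPM in control-iron libraries. The ranges nearly coincided, and the 95% interval of the log2 fold change, -0.38 to 0.27, was the narrowest of the 10 (estimate -0.051, adjusted p = 0.91 in limma, and 0.017 without control-iron replicate 1). Zmat3, a zinc finger protein that binds RNA and affects splicing, had 16.02, 19.3 and 20.3 CPM in high-iron libraries, against 17.04, 10.7 and 24.4 CPM in control-iron libraries. Both the lowest and the highest library for Zmat3 were controls, and its log2 fold change was 0.15 ± 0.27 (SE, adjusted p = 0.84 in limma) and -0.14 without control-iron replicate 2. Trp53inp1 spans chr4:11156431-11174379 on the plus strand and Zmat3 chr3:32334792-32366014 on the minus strand of GRCm38.

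**Figure D2:**
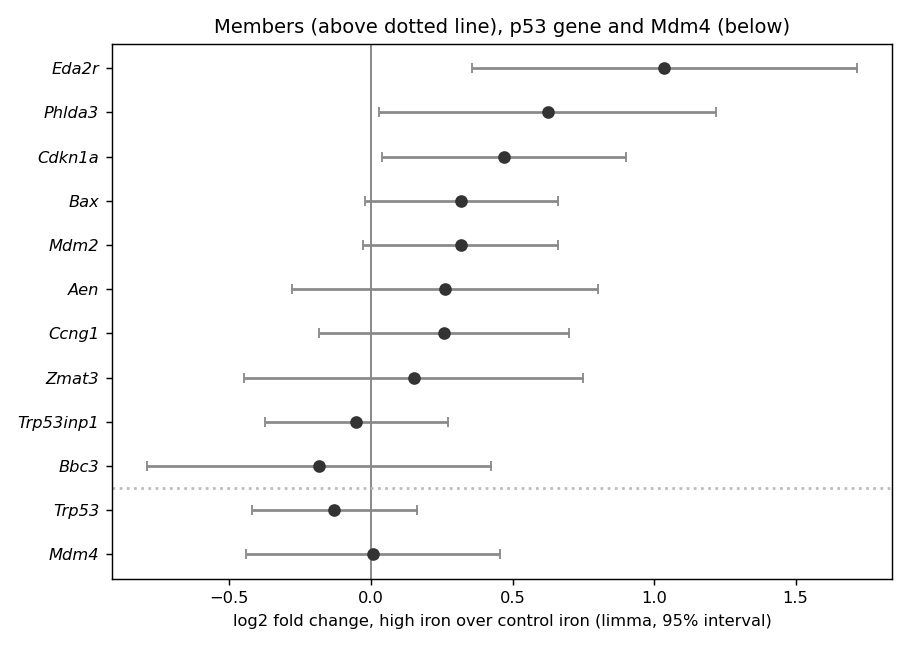
Log2 fold change of high-iron over control-iron cells on the log2(CPM + 1) scale (horizontal axis) with its 95% interval from limma, for the 10 members in order and, below the dotted line, for the p53 gene Trp53 and its inhibitor Mdm4. The intervals of Eda2r, Phlda3 and Cdkn1a lie above 0, those of the other 9 genes include 0, and none of the 12 passed after adjustment over all genes.

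Per length, Bax was by far the most abundant member, at 264 ± 30.5 RPKM in high-iron and 212 ± 31.3 RPKM in control-iron cells (SD, n = 3 each). Cdkn1a, Ccng1 and Mdm2 came next, with mean levels of 15.3, 14.3 and 11.7 RPKM in high-iron and 10.9, 12.1 and 9.39 RPKM in control-iron cells. The library ranges of these 3 overlapped in both groups, so no order among them is given. Trp53inp1, Bbc3 and Phlda3 followed with means of 6.77, 5.73 and 5.75 RPKM in high-iron and 7.01, 6.92 and 3.42 RPKM in control-iron cells. Aen (2.31 and 1.93 RPKM), Zmat3 (1.35 and 1.27 RPKM) and Eda2r (0.752 and 0.278 RPKM, high-iron before control-iron cells) were the lowest. The length used is the deposited gene length, which for several members differs from that in GENCODE M21.

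The members did not share 1 ranking of the libraries. High-iron replicate 3 had the highest level of the 6 libraries for 6 of 10 members (Cdkn1a, Mdm2, Bax, Phlda3, Eda2r and Aen) and the lowest for Trp53inp1. It is also the shallowest library. Control-iron replicate 3 had the lowest level for 5 members (Mdm2, Ccng1, Phlda3, Eda2r and Aen) and the highest for Zmat3. With high-iron replicate 3 left out, the log2 fold changes were 0.33 for Cdkn1a, 0.45 for Phlda3 and 0.82 for Eda2r, and 1 member had an unadjusted p under 0.05, as when high-iron replicate 2 was left out. With control-iron replicate 3 left out the median over the members was 0.32 and no member was called. The part of single libraries and of their cell makeup in these differences was not tested.

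**Figure D3:**
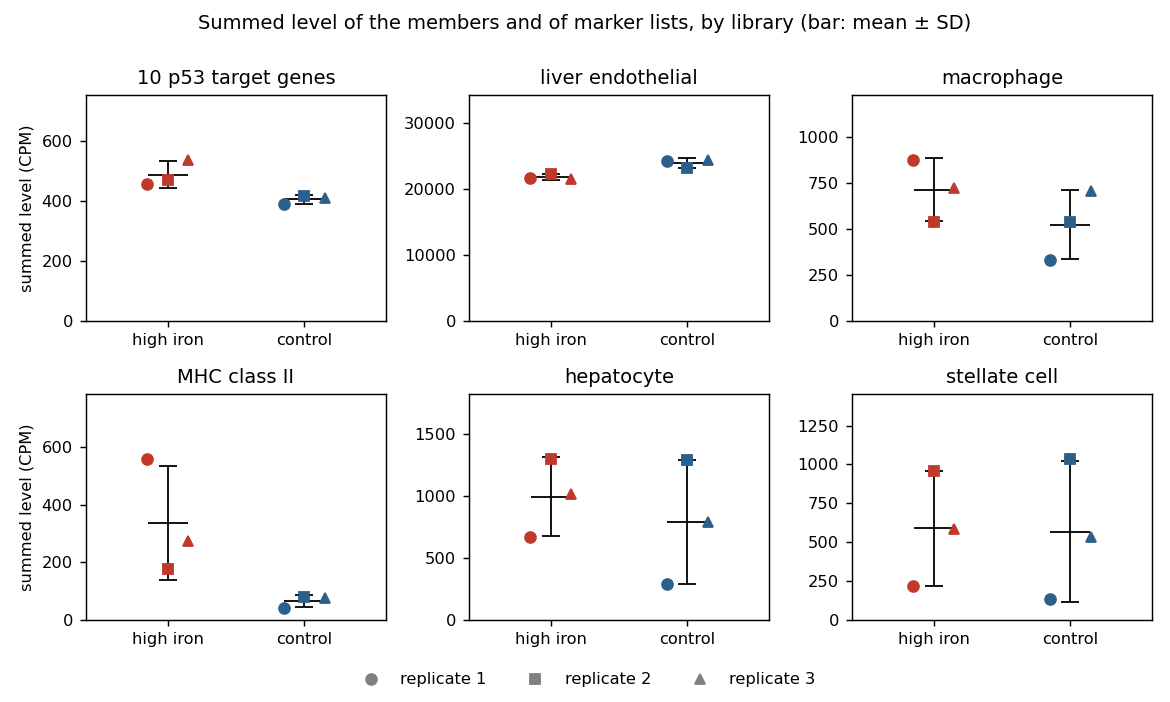
Summed level in CPM (vertical axes, from 0) of the 10 members and of marker lists in the 3 high-iron and 3 control-iron libraries; points are libraries, shaped by replicate, and bars are the mean ± SD. The members sum to 457 to 538 CPM in high-iron and 389 to 417 CPM in control-iron libraries. Bax alone makes up 206 to 257 and 153 to 206 CPM of these, in that order. The macrophage, hepatocyte and stellate cell sums overlap between the groups. The MHC class II sums, higher on high iron, and the endothelial sums, lower on high iron, do not.

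The marker lists other than the endothelial one had positive median log2 fold changes, as the members did. The smallest were 0.10 over 7 tested stellate markers, with 3 below 0, and 0.23 over 4 erythroid markers, with 2 below 0. The median log2 fold change was 2.15 over the 4 MHC class II genes and 1.53 over 14 tested macrophage markers, 13 of which lay above 0, both larger than that of any member. Of these 14, 11 had all high-iron above all control-iron libraries, against 9.46% of all tested genes. At an unadjusted p under 0.05 in limma there were 13, against 12.1%, and edgeR called 2 and DESeq2 10. The 12 endothelial markers had a median of -0.19, with 10 below 0 and 0 called by limma, where 49.5% of all tested genes were above 0. An unadjusted p under 0.05 was reached by 2 of the 12, and edgeR called 0 and DESeq2 1, against 0.863% and 3.27%. Groups did not overlap for 2 that were higher and 3 that were lower on high iron, against 9.46% and 8.44%. Hepatocyte markers had a median of 0.57 with 0 of 12 called by limma, while 2 (Fga and Fgb) passed at an unadjusted p under 0.05 and in DESeq2, and 0 passed in edgeR. High-iron replicate 1, with the highest macrophage and MHC class II sums, had the lowest level among high-iron libraries for 7 of 10 members. High-iron replicate 2 and control-iron replicate 2 had the highest hepatocyte sums, at 1299 and 1286 CPM. In such bulk samples more cells of a type and more RNA per cell cannot be told apart, and the part of other cells in the members' values was not tested.

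The p53 gene itself and the genes that control it did not pass the threshold. Trp53 had 167, 143 and 162 CPM in high-iron libraries, against 179, 155 and 182 CPM in control-iron libraries. The groups overlapped, with a log2 fold change of -0.13 and a 95% interval of -0.42 to 0.16, and the estimate was -0.064 without high-iron replicate 2 and -0.20 without control-iron replicate 2. Mdm4, the relative of Mdm2 that blocks the activation domain of p53, averaged 14.4 ± 0.852 CPM in high-iron and 14.5 ± 3.35 CPM in control-iron cells (SD, n = 3 each). Of 24 listed genes 21 were tested and 0 were called by limma, against 1.02% of all tested genes. By edgeR 0 were called and by DESeq2 1, against 0.863% and 3.27%. An unadjusted p under 0.05 in limma was reached by 1 of the 21, against 12.1%. In limma and DESeq2 alike this gene was Hipk2, a kinase that phosphorylates p53 for its apoptotic function. Hipk2 had 186, 267 and 216 CPM in high-iron libraries, against 134, 153 and 128 CPM in control-iron libraries, with no overlap. Its log2 fold change was 0.67 ± 0.16 (SE) with an adjusted p of 0.089 in limma and 0.0059 in DESeq2. The median over the 21 regulators was 0.0089. Cdkn2a, whose ARF product frees p53 from Mdm2, stayed under 1 CPM in all libraries, and the p53 relatives Trp63 and Trp73 had no reads, where 3 reads correspond to 0.139 to 0.231 CPM (counting error only).

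Among 48 other listed p53 targets, 39 were tested, and 1 rose, where limma called 0.832% of all tested genes higher. It is Cd82, a membrane tetraspanin known as a suppressor of metastasis. Cd82 had 117, 100 and 117 CPM in high-iron libraries, against 69.2, 64.4 and 73.6 CPM in control-iron libraries, and the groups were well apart. Its log2 fold change was 0.68 ± 0.13 (SE, adjusted p = 0.047 in limma, 0.059 in edgeR and 6.9e-04 in DESeq2). Cd82 was no longer called when any 1 of the 6 libraries was left out, with limma adjusted p-values between 0.054 without control-iron replicate 1 and 0.28 without high-iron replicate 3. The median log2 fold change over the 39 was 0.079, with 25 above 0 and 14 below, where 49.5% of all tested genes were above 0. An unadjusted p under 0.05 in limma was reached by 7 of the 39, against 12.1% of all tested genes. All high-iron libraries lay above all control-iron libraries for 7 and below them for 1, against 9.46% and 8.44%. By edgeR 0 and by DESeq2 2 were called, against 0.863% and 3.27%.

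**Figure D4:**
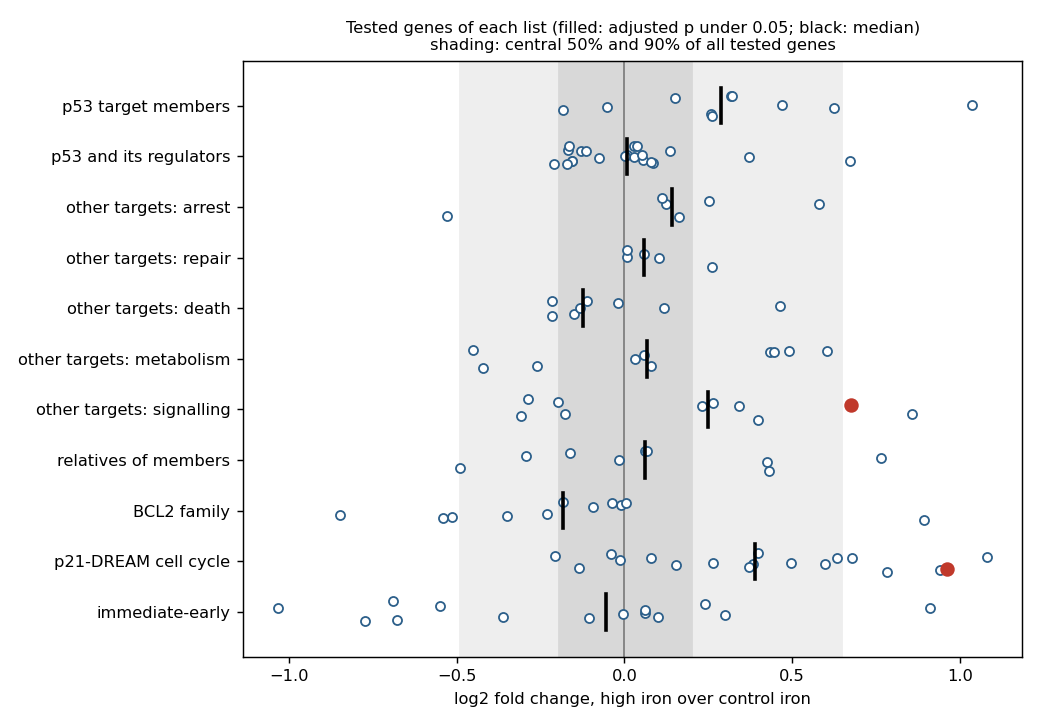
Log2 fold change of high-iron over control-iron cells (horizontal axis) for each tested gene of the members and of the other lists (rows); filled points passed an adjusted p under 0.05, black strokes are list medians, and shading spans the central 50% and 90% of all tested genes. Cd82 and Top2a are the filled points, and the members' median of 0.29 lies above the central 50% of all tested genes.

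Within those 39, the targets in growth arrest, DNA repair and cell death had no call by limma (0 of 6, 0 of 5 and 0 of 8), edgeR or DESeq2. An unadjusted p under 0.05 in limma was reached by 1, 0 and 0 in that order, against 12.1% of all tested genes. Btg2, an antiproliferative gene, averaged 48.6 ± 11.0 CPM in high-iron and 70.6 ± 16.2 CPM in control-iron cells (SD, n = 3 each), with a log2 fold change of -0.53 and an adjusted p of 0.36 in limma, opposite in sign to Cdkn1a. Plk2, a polo-like kinase, had a log2 fold change of 0.25 that was -0.0065 without control-iron replicate 3. Xpc and Polk, of nucleotide excision repair and translesion synthesis, had log2 fold changes of 0.10 and 0.059. The death receptor gene Fas and Trp53i11 had log2 fold changes of -0.15 and -0.21, with values of -0.013 for Fas without control-iron replicate 2 and -0.076 for Trp53i11 without high-iron replicate 3. Pmaip1, which encodes the BH3-only protein NOXA, was under 1 CPM in every library.

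Metabolic and redox targets had no call among 10 tested by limma, edgeR or DESeq2, with 3 at an unadjusted p under 0.05 (against 12.1% of all tested genes). Those were Sesn2, a stress-induced inhibitor of mTORC1 signalling, Pmm1, a phosphomannomutase, and Ephx1, an epoxide hydrolase that is also a target of NRF2. Sesn2 averaged 41.1 ± 3.53 CPM in high-iron and 30.2 ± 2.62 CPM in control-iron cells (SD, n = 3 each), without overlap (log2 fold change 0.43, adjusted p = 0.28 in limma). Pmm1 and Ephx1 had log2 fold changes of 0.60 and 0.49, and Dcxr, a carbonyl reductase, one of -0.42 that ran between -0.76 without control-iron replicate 1 and -0.13 without control-iron replicate 3. Among 10 tested signalling targets Cd82 was the single call by limma, against 1.02% of all tested genes. By edgeR 0 were called, against 0.863%. DESeq2 called 2, against 3.27%, namely Cd82 and Tgfa, a ligand of the EGF receptor. Tgfa averaged 71.3 ± 21.4 CPM in high-iron and 38.5 ± 9.69 CPM in control-iron cells (log2 fold change 0.86, adjusted p = 0.18 in limma). Kitl, the ligand of the receptor KIT, had a log2 fold change of 0.34, and Crip2 one of -0.31. Gdf15, a secreted stress cytokine often induced by p53, was under 1 CPM in every library.

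Relatives of the members and the wider BCL2 family had no call by limma. Of 9 tested relatives, 0 passed in edgeR or DESeq2 and 1 reached an unadjusted p under 0.05, where 12.1% of all tested genes did. It was the kinase inhibitor gene Cdkn1b, with a log2 fold change of -0.49. The most abundant relatives were Trp53inp2, with a log2 fold change of 0.42 that ran between 0.11 without high-iron replicate 2 and 0.76 without high-iron replicate 1, and Cdkn1c, with one of -0.016; an antisense gene covers 30.7% of the exon length of Cdkn1c. Among 11 tested BCL2 family genes 2 had a positive and 9 a negative log2 fold change, where 49.5% of all tested genes were above 0. An unadjusted p under 0.05 was reached by 3, against 12.1% of all tested genes. DESeq2 called 2 (Bid and Bcl2l11) where edgeR found 0, against 3.27% and 0.863% of the genes they tested. Bid, which links death receptors to the mitochondrial pathway, averaged 13.1 ± 2.02 CPM in high-iron and 6.60 ± 1.19 CPM in control-iron cells (SD, n = 3 each; log2 fold change 0.89, adjusted p = 0.095 in limma). Exons of Bcl2l13 on the opposite strand cover 17.7% of Bid, and the library kit does not mark strand. Bcl2l11, which encodes BIM, averaged 22.3 ± 3.07 CPM in high-iron and 41.6 ± 10.2 CPM in control-iron cells (log2 fold change -0.85, adjusted p = 0.10 in limma). Bik had a log2 fold change of -0.54, and Bak1 had one of -0.51 that was -0.14 without control-iron replicate 3.

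Cell cycle genes that p53 is known to lower through p21 and the DREAM complex had 1 call among 18 tested. Limma called 1.02% of all tested genes. The 1 called gene rose, and 7 had an unadjusted p under 0.05, where 12.1% of all tested genes did. By edgeR and DESeq2 1 each was called, against 0.863% and 3.27%. A positive log2 fold change was found for 14, against 49.5%, and the median was 0.39 against -0.0034 over all tested genes. For 6 of the 18 all high-iron libraries were above all control-iron libraries, against 9.46%. The 20 listed genes summed to 389 to 444 CPM in high-iron and 304 to 361 CPM in control-iron libraries, beside the macrophage and MHC class II sums given above, whose part in these values was not tested. The gene that rose was Top2a, the topoisomerase of dividing cells, with 16.6, 14.6 and 15.6 CPM in high-iron libraries, against 7.17, 7.43 and 7.97 CPM in control-iron libraries. Its log2 fold change was 0.96 ± 0.18 (SE, adjusted p = 0.041 in limma), a call that edgeR and DESeq2 also made. Top2a no longer passed when any 1 of the 6 libraries was left out, with limma adjusted p-values between 0.054 without control-iron replicate 1 and 0.24 without high-iron replicate 3. Mki67, the proliferation marker, averaged 12.3 ± 2.18 CPM in high-iron and 5.61 ± 2.73 CPM in control-iron cells (log2 fold change 1.08, adjusted p = 0.16 in limma), and it passed without control-iron replicate 1 (adjusted p = 0.033 in limma). Ccnb2 and Birc5 had log2 fold changes of 0.78 and 0.94.

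Immediate-early genes, which respond within minutes to cell isolation and to many signals and which can raise Cdkn1a without p53, had no call by limma among 14 tested. The unadjusted p was under 0.05 for 4 of them, against 12.1% of all tested genes. By edgeR 0 were called and by DESeq2 1 (Ier3), against 0.863% and 3.27%, and the median was -0.055. Klf4, Ier5 and Ier2 had log2 fold changes of -1.03, -0.68 and -0.55, and Ier3 one of 0.91. Without high-iron replicate 2 the value was -0.66 for Klf4 and -0.33 for Ier2, and without control-iron replicate 3 it was -0.38 for Ier5.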

How the data were processed

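RNA was sequenced from 6 libraries with a low-input cDNA kit that does not mark strand. Per the submitters' processing notes, the tools were STAR, HTSeq and edgeR on build mm10; versions and roles are not given there. The authors deposited a normalized signal named CPM, whose 114253 values above 0 were all whole multiples of one step per library within 0.001 read (100%), so reads were recovered; recomputed TMM factors matched the scaling. The second deposited table holds RPKM, which equals CPM per kilobase of gene length to within 8.0e-11.

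The main test was limma 3.58.1 (R 4.3.3) on log2 values after adding 1 CPM, with diet as sole term, a variance trend and two-sided p-values, for 12980 genes with at least 1 CPM in at least 3 libraries, adjusted by Benjamini-Hochberg, and called below 0.05. On the recovered reads edgeR 4.0.16 called 112 genes and DESeq2 1.42.0 called 424, against 133 by limma. An exact permutation test of 3 against 3 cannot go below 0.10 and was not used. The procedure was tested on simulated data. Within groups no pair of libraries was a duplicate (chi-square per degree of freedom at least 17.3).

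Members and lists were chosen with earlier results of these data known. All 206 listed entries matched a row, some through their Ensembl identifier. Genes named beyond the members were those past the threshold, the 4 with the smallest p of a list where at least 2 had an unadjusted p under 0.05, and otherwise its 2 most abundant; genes under 1 CPM everywhere, DESeq2 calls and contrasts were named after their values were seen. Positions and exon overlaps come from GENCODE M21 (GRCm38), promoters from RefSeq (GRCm38.p6). BLAST+ 2.17.0 found no transcript of another gene that covers over 17.6% of a member at 95% identity. Alternatives were other pseudocounts, filters, scalings and tools, a replicate block, no variance trend and each library left out.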

Additional observations from a re-analysis of the deposited data

How the results depend on the processing

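No member was called under any of the 16 alternatives, and 156 of the 159 values of members under them kept their sign. Eda2r, the member with the fewest reads, was not tested where a mean CPM of at least 5 was asked for. The lowest adjusted p of a member was 0.062, for Eda2r with the replicate number as a block. Over all genes tested, 133 were called, against 34 with no filter on low values, 74 with no variance trend, 424 by DESeq2 and 402 with the replicate block, and between 26 (without high-iron replicate 3) and 173 (without control-iron replicate 1) with 1 library left out. The single call among other p53 targets, Cd82, was lost (0 calls) with a pseudocount of 0.1, no filter, total-count scaling, edgeR, no variance trend, and with any 1 library left out (0 to 0), while DESeq2 and the replicate block gave 2 (Cd82 and Tgfa). Among p53 regulators DESeq2 and the replicate block gave 1 call, Hipk2. Relatives, BCL2 family, cell cycle and immediate-early genes together had 1 call (Top2a), 0 with no filter, 4 by DESeq2, 5 with the replicate block (Top2a, Mki67, Bcl2l11, Klf4 and Ier3), and 0 to 1 with 1 library left out, the 1 being Mki67. The cause of these changes was not tested. The sign of Mdm4 turned with edgeR (-0.019) and DESeq2 (-0.0082). With 1 library left out the log2 fold change spanned 0 for Bbc3 (-0.38 to 0.13), Trp53inp1 (-0.13 to 0.017), Zmat3 (-0.14 to 0.42), Mdm4 (-0.11 to 0.18), Plk2 (-0.0065 to 0.51), Xpc (-0.039 to 0.25), Polk (-0.0033 to 0.15) and Cdkn1c (-0.12 to 0.16). Same-numbered libraries of the groups deviated together with correlations of 0.13, 0.32 and 0.063 over genes. Differently numbered libraries had correlations between -0.39 and 0.20, the highest for high-iron replicate 1 with control-iron replicate 3. The hepatocyte, stellate and erythroid sums were highest in replicate 2 of both groups. The labels describe no pairs, so the main test did not use the numbers. Whether same-numbered libraries share a batch was not tested.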
